A study of Homo sapiens with 192 samples.

Results

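Imprinted genes are expressed mainly from the copy inherited from one parent. The 10 imprinted genes described here are PEG10, SGCE, MEST, PEG3, SNRPN, H19, MEG3, KCNQ1OT1, PLAGL1 and GNAS, and the regions are the ATAC features at and around them in HAP1 nuclei. A feature was taken as a promoter feature when it lay within 1000 bp of an annotated transcription start (GENCODE 44) of one of these genes, and as a body or flank feature when it lay elsewhere in the gene or within 20000 bp of it. This gave 41 features out of the 80971 of the series, namely 14 of the 19796 promoter features and 27 body and flank features. The set was chosen by measured values: a feature of PEG10 had been seen in many cells of these same data, so its share of cells is a description and supports nothing.

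Imprinting rests on DNA methylation that is laid down in the egg or the sperm at control regions, and that is kept on only one parental copy after fertilisation. The unmethylated copy of a control region is usually open, and the other copy is kept methylated and closed with the help of zinc finger proteins that read methylated DNA, such as ZFP57, and of their partner TRIM28. At other loci, such as H19, the insulator protein CTCF binds only the unmethylated copy. ATAC-seq measures openness, and it measured neither methylation nor parental origin here.

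HAP1 is a human line with a near-haploid genome that was derived from a chronic myeloid leukemia line, and it holds 1 parental copy of most loci. Cells labeled with CASB, a barcoding DNA held on the membrane through concanavalin A, were pooled with unlabeled ones, and their nuclei were cut with Tn5 and sorted singly into 2 plates of 96 wells. Which nuclei carried CASB is not known here, neither a treatment nor separate cultures are named, and with 1 mixed sample per plate no test was made. The values are raw counts of read pairs in features of equal length on hg38, with peaks called over all cells together.

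With more than 300 peaks, 83 of 96 cells of plate 1 and 79 of 96 of plate 2 passed. They held from 345 to 15351 read pairs in features, with a median of 2029 in plate 1 and 2162 in plate 2. Cells 37 to 48 and 73 to 96 of each plate are called paired wells below. They were set apart because wells among them tended to have read pairs in the same features. No measure of this over all features is given here. The counts hold no read positions, so whether these wells share the same read pairs was not tested. The paired wells make up 71 of the passing cells (43.8%), so values are also given for the 91 passing cells outside them. Of 6 markers of blood cells, 1 (ITGA2B, in 6 cells) had a promoter feature. Of 6 markers of adherent cells, 4 had one, namely CAV1 in 22 cells, VIM in 18, CDH2 in 13 and ITGB1 in 6. The share with a promoter feature was 56.1% over all protein-coding genes. Defining blood markers such as PTPRC and CD34 had no promoter feature, and neither had the epithelial keratin genes KRT8 and KRT18. Intervals of shares are exact 95% binomial intervals (Clopper-Pearson), and counting error is all they cover. They take cells as independent, which the paired wells may not be, so they may be too narrow. Reads carry no molecular identifiers.

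The sequences below set stretches at features seen in cells beside promoters that had no feature within 1000 bp. The most-seen feature of all 10 genes lies in an intron of PEG10, and the part of it after its centre is a tandem repeat. The stretch at chr7:94658082-94658381 is printed from the forward strand of hg38, with 6 copies of a 15-base core in capitals.

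PEG10 intron feature: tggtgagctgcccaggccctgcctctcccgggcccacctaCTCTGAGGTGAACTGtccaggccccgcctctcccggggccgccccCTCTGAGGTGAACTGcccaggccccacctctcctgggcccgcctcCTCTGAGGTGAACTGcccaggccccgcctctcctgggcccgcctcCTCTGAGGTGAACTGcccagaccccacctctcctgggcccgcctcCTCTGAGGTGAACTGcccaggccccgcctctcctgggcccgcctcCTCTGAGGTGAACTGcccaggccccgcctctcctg

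Shifted by 45 bases against itself, this feature was identical in 53.6% of positions over its whole length and in 79.6% after its centre. The best identity at a shift of 20 to 100 bases had a median of 30.6% over all features. It was at least as high as in the PEG10 feature for 0.140% of the 80971 features. The 6 core copies follow each other at steps of 45 bases.

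The next sequences have each CG dinucleotide in capitals, since CG is where DNA methylation sits. The first is from the most-seen MEG3 feature (chr14:100830882-100831181, forward strand of hg38). The second is one of several RefSeq promoters of PLAGL1 (GRCh38.p14, chr6:144064550-144064849, reverse strand). Its start lay within 1000 bp of a feature seen in 9 cells.

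MEG3 promoter feature: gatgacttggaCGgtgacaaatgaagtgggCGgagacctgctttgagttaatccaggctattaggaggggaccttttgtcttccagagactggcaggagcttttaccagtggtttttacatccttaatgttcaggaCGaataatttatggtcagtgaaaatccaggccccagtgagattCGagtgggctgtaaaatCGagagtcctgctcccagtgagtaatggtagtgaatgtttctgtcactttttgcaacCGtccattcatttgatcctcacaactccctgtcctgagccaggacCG

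PLAGL1 RefSeq promoter: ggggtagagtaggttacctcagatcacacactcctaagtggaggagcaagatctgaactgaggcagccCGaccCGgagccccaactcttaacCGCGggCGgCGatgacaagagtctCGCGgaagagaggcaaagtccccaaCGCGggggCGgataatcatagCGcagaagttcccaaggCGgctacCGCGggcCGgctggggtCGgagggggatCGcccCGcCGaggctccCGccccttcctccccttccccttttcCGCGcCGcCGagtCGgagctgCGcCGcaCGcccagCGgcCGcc

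These stretches hold 7 and 31 CG dinucleotides. The following 3 RefSeq promoters (GRCh38.p14, forward strand) are those with the most CG dinucleotides of MEST (chr7:130491835-130492134), SNRPN (chr15:24954737-24955036) and GNAS (chr20:58888930-58889229). None of these 3 promoters had a feature within 1000 bp of its start.

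MEST RefSeq promoter: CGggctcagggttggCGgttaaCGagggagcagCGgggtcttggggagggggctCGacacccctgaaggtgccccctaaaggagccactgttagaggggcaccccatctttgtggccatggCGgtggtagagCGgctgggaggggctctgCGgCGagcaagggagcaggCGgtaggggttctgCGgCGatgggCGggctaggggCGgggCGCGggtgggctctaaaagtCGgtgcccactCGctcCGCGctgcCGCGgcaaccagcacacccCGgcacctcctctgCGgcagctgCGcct

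SNRPN RefSeq promoter: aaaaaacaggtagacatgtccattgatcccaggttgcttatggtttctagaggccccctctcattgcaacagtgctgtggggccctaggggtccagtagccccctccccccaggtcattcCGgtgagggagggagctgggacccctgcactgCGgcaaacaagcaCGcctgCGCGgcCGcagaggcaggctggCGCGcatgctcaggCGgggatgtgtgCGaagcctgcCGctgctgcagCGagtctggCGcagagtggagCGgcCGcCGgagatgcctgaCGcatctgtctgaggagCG

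GNAS RefSeq promoter: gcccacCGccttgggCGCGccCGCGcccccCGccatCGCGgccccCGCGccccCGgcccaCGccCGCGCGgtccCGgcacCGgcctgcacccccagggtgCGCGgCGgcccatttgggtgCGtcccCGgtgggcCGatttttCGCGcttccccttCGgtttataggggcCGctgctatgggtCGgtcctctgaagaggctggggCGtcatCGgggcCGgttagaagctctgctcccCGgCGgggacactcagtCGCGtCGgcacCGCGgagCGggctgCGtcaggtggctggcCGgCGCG

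These hold 25, 18 and 43 CG dinucleotides, so promoters rich in CG are printed both with and without a feature within 1000 bp. This holds for single promoters and not for whole genes, since GNAS had promoter features at other starts. The last stretch is from an H19 feature (chr11:2002817-2003116, forward strand of hg38), with TGCCGC on either strand in capitals, the letters that ZFP57 recognises when methylated.

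H19 promoter feature: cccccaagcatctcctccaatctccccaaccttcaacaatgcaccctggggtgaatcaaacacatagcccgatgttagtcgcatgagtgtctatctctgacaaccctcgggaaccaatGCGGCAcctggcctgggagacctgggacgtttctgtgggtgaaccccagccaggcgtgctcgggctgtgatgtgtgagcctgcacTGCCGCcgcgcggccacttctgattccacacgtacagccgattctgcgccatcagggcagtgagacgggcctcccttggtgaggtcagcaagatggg

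Of the 10 genes, 6 had a promoter feature (PEG10, SGCE, H19, MEG3, PLAGL1 and GNAS), and 8 had any feature within 20000 bp. Over all protein-coding genes, 56.1% had a promoter feature, but H19, MEG3 and KCNQ1OT1 are long noncoding RNAs. The median share of passing cells was 4.32% over the 14 promoter features, beside 3.70% over all promoter features. Without the paired wells these medians were 2.75% and 3.30%, so which of them is higher depends on these wells. Of the 14, 2 were seen in at least 10% of passing cells (17 cells or more), and both are in the PEG10 and SGCE region. Over all promoter features this share was 7.74%. Outside the paired wells the same 2 reached 10%, beside 6.2% of all promoter features. For the 27 body and flank features the median was 1.85%, the same as over all 80971 features, and 1 of them reached 10%, beside 3.02% over all features. Without the paired wells 13 of the 27 were seen, beside 67.8% of all features, and the median was 0%, beside 1.10% over all features. Of the 259 distinct annotated starts of the genes, 39.8% had a feature within 1000 bp. A start of PEG10 or SGCE that is counted for both genes enters the 259 under each. SGCE alone gave 73 of these starts, and 52 of its starts had a feature. Of these 52, 47 lay inside a single feature, from 94655596 to 94656596 on chromosome 7. The share therefore depends strongly on this feature and says little about the other genes. No share over all annotated starts is given beside it.

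**Figure D1:**
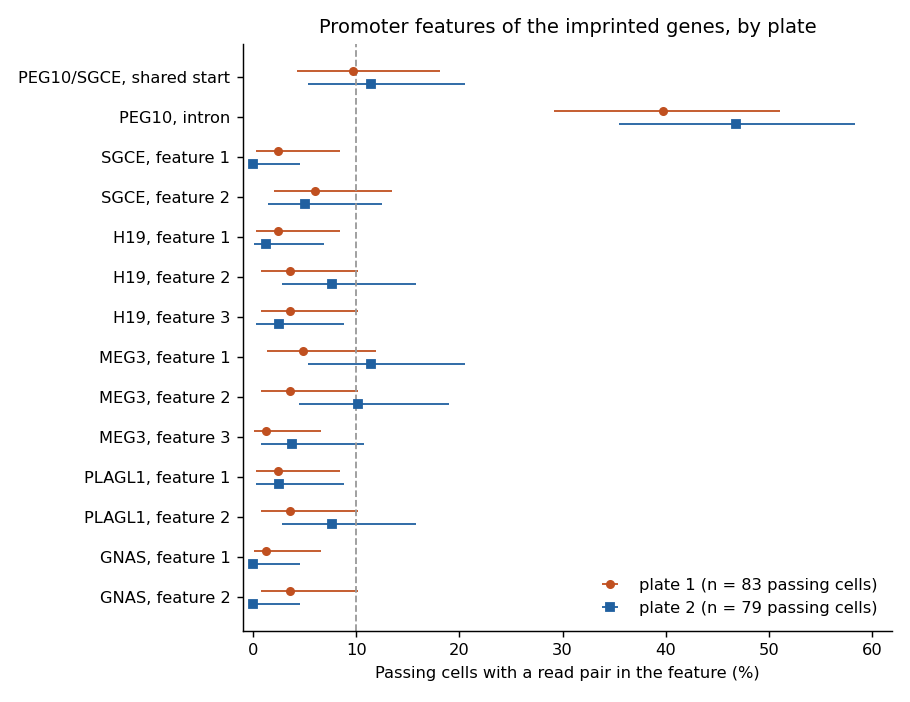
Percentage of passing cells with a read pair (x axis) in each of the 14 promoter features (y axis, in genome order within a gene), for plate 1 (circles) and plate 2 (squares), with exact 95% intervals as bars and a dashed line at 10%. The PEG10 intron feature stands at 39.8% and 46.8%, and no other feature exceeds 11.4% in a plate.

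PEG10, a gene derived from a retrotransposon and expressed in placenta, and SGCE, which encodes epsilon-sarcoglycan, are neighbours that start from opposite strands and share a start region. Both are expressed from the paternal copy. PEG10 (ENSG00000242265.6) lies on chromosome 7 from 94656325 to 94669695 on the forward strand, and SGCE (ENSG00000127990.19) from 94524204 to 94656572 on the reverse strand. The feature from 94657454 to 94658454, in an intron of PEG10, was seen in 33 of 83 passing cells of plate 1 (39.8%, interval 29.2 to 51.1%) and in 37 of 79 of plate 2 (46.8%, interval 35.5 to 58.4%). These intervals overlap widely. Over both plates it was seen in 70 cells (43.2%), and outside the paired wells in 37 of 91 cells (40.7%). It was the second of all promoter features and the fourth of all features by number of cells. It contains no annotated start, and lies 908 bp from the nearest PEG10 start and 882 bp from the nearest SGCE start, just inside the 1000 bp that made it a promoter feature.

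The feature over the shared start itself, from 94655596 to 94656596, contains 4 starts of PEG10 and 47 of SGCE. It was seen in 8 cells of plate 1 (9.64%) and 9 of plate 2 (11.4%), 17 cells in all (10.5%, interval 6.23 to 16.3%), with 26 read pairs. Outside the paired wells it was seen in 10 of 91 cells, 7 of 48 in plate 1 and 3 of 43 in plate 2. Of its 17 cells, 16 also had the intron feature. The intron feature had a GC content of 64.1% with 36 CG dinucleotides.

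Read pairs per nucleus were also counted at the intron feature, which was chosen for being seen in many cells. It had 1 read pair in 34 cells, 2 in 16, 3 in 7, 4 in 5 and 5 in 4. The highest values were 7, 9, 9 and 13, and 92 passing cells had 0. Of the 70 cells with the feature, 36 (51.4%, interval 39.2 to 63.6%) held at least 2 read pairs. Among the 2447 features seen in at least 10% of passing cells the median of this share was 21.1%, and 13 of them had a higher one. The mean was 2.36 read pairs per cell with the feature, beside a median of 1.27 over those features, of which 3 had a higher mean. Those features were not matched to it by number of cells, and a more widely seen feature can hold more read pairs per cell. These values are therefore no trait apart from its share of cells. None of them is given outside the paired wells.

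Of the nuclei with the highest values, plate 2 cell 44, with 13, was the deepest of all passing cells with 15351 read pairs. Plate 2 cells 84 and 88, with 9 each, had 5270 and 4296, and plate 1 cell 29, with 7, had 6083. The first 3 of these are in paired wells. Of the 70 cells, 33 were in paired wells, and 20 of these had a paired well in which the feature was also seen.

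The share of cells with the intron feature rose with depth. The passing cells were split by depth into 4 groups of 40 or 41. Among the shallowest (345 to 1090 read pairs) the feature was seen in 6 of 41, and in the next groups in 13 of 40 and 16 of 40. Among the deepest (4024 to 15351 read pairs) it was seen in 35 of 41 cells (85.4%, interval 70.8 to 94.4%). Per 10000 read pairs, the feature took 3.47, 3.21, 2.07 and 4.09 in the 4 groups, so its part of the read pairs did not rise steadily. After thinning to 600 read pairs a cell (16 shallower cells were left out) it was seen in 19.9%. The shared start was seen in 0 of 41, 1 of 40, 4 of 40 and 12 of 41 cells of these groups. Per 10000 read pairs it took 0, 0.160, 0.346 and 0.774, so its part rose with depth, though on only 0, 1, 4 and 21 read pairs. A cell without a read pair is therefore not shown to be closed at either feature.

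**Figure D2:**
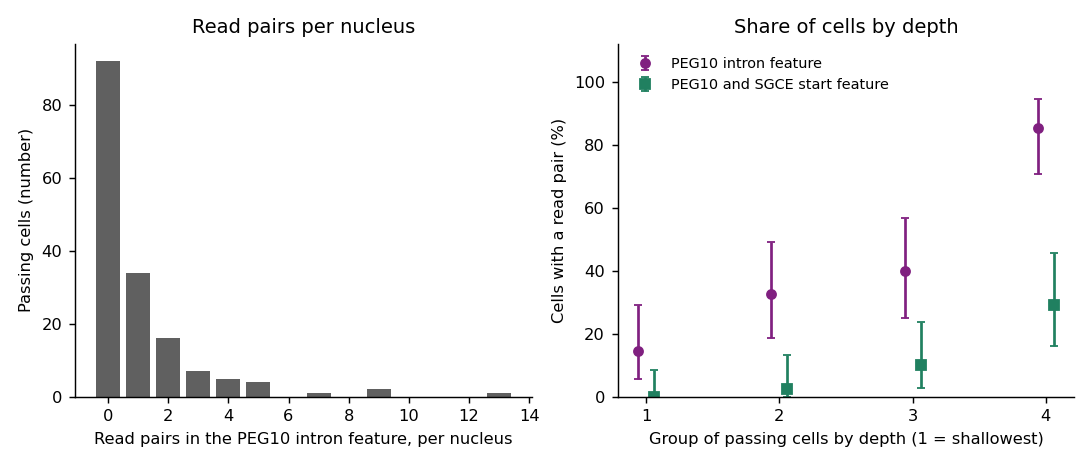
Left, number of passing cells (y axis) by read pairs in the PEG10 intron feature (x axis); 92 cells hold 0 and the highest holds 13. Right, percentage of cells (y axis) with the PEG10 intron feature (circles) and with the shared PEG10 and SGCE start feature (squares) in 4 groups of the passing cells by depth (x axis), with exact 95% intervals, from 14.6 to 85.4% for the first and from 0 to 29.3% for the second.

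The features that shared the most cells with the PEG10 intron feature outside the paired wells, by the Jaccard index over 91 cells, lay at none of the imprinted genes. They were a feature on chromosome 3 (93470100 to 93471100) with 0.452, in 33 common cells, one on chromosome 1 over mitochondrial pseudogenes (633528 to 634528) with 0.429, also in 33, and one on chromosome 2 (227772701 to 227773701) with 0.419, in 18. These were themselves seen in 76.5, 81.5 and 27.8% of passing cells. The index grows with the number of cells that hold a feature and with their depth, and it is a description only.

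Further into SGCE, an intron feature from 94642545 to 94643545 was seen in 19 cells of plate 1 and 10 of plate 2, 29 in all (17.9%, interval 12.3 to 24.7%), with 47 read pairs. Outside the paired wells it was seen in 16 of 91 cells (17.6%). It was the most-seen body or flank feature of the 10 genes. It lies 1070 bp from the nearest SGCE start, just outside the 1000 bp of a promoter feature, and has 1 CG dinucleotide at a GC content of 37.1%. An adjoining feature from 94643455, which overlaps it and lies 160 bp from an SGCE start, was seen in 9 cells (5.56%). A read pair in the overlap counts in both. Another intron feature, from 94648394 to 94649394, was seen in 11 cells (6.79%), 3 of plate 1 and 8 of plate 2. The remaining SGCE promoter feature, over an exon from 94599125, was seen in 2 cells, both of paired wells. Between the intron feature at 94657454 and the end of the 20000 bp flank of PEG10, no feature was called.

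Beyond the 3′ end of SGCE, 5 flank features lie at and near the start of the neighbouring gene CASD1, which encodes a sialic acid O-acetyltransferase. Of these, the features from 94509863, 94509171 and 94511895 were seen in 16 (9.88%), 10 (6.17%) and 9 cells (5.56%). The first has a GC content of 70.8% and 89 CG dinucleotides. They belong to the region only by the distance rule.

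**Figure D3:**
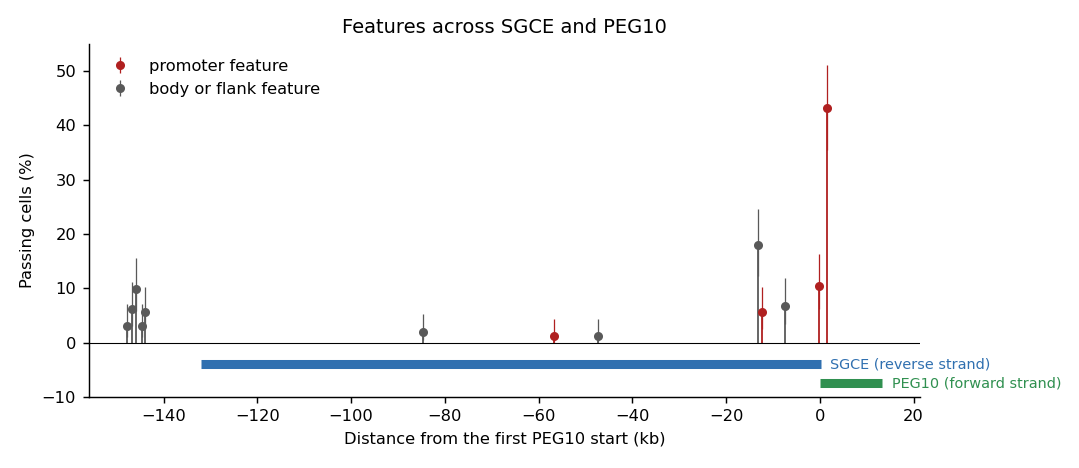
Percentage of passing cells (y axis) with each feature in and within 20000 bp of SGCE and PEG10, by distance of its centre from the first PEG10 start in kb (x axis), with exact 95% intervals; promoter features are red, body and flank features grey, and bars below 0 mark the genes. The 43.2% of the PEG10 intron feature stands above the 17.9% of the SGCE intron feature and all others.

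H19, a maternally expressed long noncoding RNA on chromosome 11 (ENSG00000130600.22, 1995166 to 2004552, reverse strand), had 3 promoter features and no others. The feature from 2001517 to 2002517, over an exon with 3 starts, was seen in 3 cells of plate 1 and 6 of plate 2, 9 in all (5.56%, interval 2.57 to 10.3%). The one from 2002467 to 2003467, in an intron of H19, was seen in 5 cells, and the one from 1999051 to 2000051, over an exon, in 3. The first and second overlap by 51 bp and share 4 cells. Together the 3 features were seen in 12 cells (7.41%), and outside the paired wells they were seen in 3, 2 and 1 of 91 cells. In genome order they hold TGCCGC 1, 2 and 5 times and GGNGGCAG, a part of the CTCF motif, 1, 1 and 2 times, counted on both strands.

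MEG3, a maternally expressed long noncoding RNA on chromosome 14 (ENSG00000214548.18, 100779410 to 100861031, forward strand), had 3 promoter features, all over exons at starts inside the gene. The feature from 100830485 to 100831485 was seen in 4 cells of plate 1 (4.82%) and 9 of plate 2 (11.4%), 13 in all (8.02%, interval 4.34 to 13.3%). The feature from 100830899 to 100831899 was seen in 3 and 8 cells. It overlaps the first by 587 bp, and all of its 11 cells also had the first, so they are nearly the same observation. The feature from 100831796 to 100832796 was seen in 4 cells. A body feature in an intron, from 100799754, was seen in 5 cells (3.09%). The 3 RefSeq promoters of MEG3 (100825858 to 100826181) had no feature within 1000 bp. The MEG3 promoter features have a GC content between 45.2 and 50.05%, and none holds TGCCGC.

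PLAGL1, a paternally expressed gene of a zinc finger transcription factor on chromosome 6 (ENSG00000118495.21, 143940300 to 144064599, reverse strand), had 2 promoter features. The one from 144063577 to 144064577, over an exon with 3 starts, was seen in 3 cells of plate 1 and 6 of plate 2, 9 in all (5.56%, interval 2.57 to 10.3%), and in 5 of 91 cells outside the paired wells. It has a GC content of 68.1% and 97 CG dinucleotides, an observed to expected ratio of 0.85. The one from 143961439, in an intron, was seen in 4 cells (2.47%). The RefSeq promoter from 144008210 to 144008509, at 75.7% GC with 39 CG dinucleotides, had no feature within 1000 bp. Which of the PLAGL1 starts is imprinted is not in these data, so a feature at a start does not mark an imprinted promoter. The most-seen body feature, in an intron from 144023060, was seen in 8 cells (4.94%), of which 7 were in paired wells.

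GNAS, which encodes the stimulatory G protein alpha subunit and has maternal, paternal and biallelic starts, lies on chromosome 20 (ENSG00000087460.29, 58839718 to 58911192, forward strand). It had 2 promoter features. The one from 58890754 to 58891754, over an exon with 7 starts, was seen in 3 of 83 cells of plate 1 (3.61%) and 0 of 79 of plate 2 (interval up to 4.56%). The one from 58853014 was seen in 1 cell with 4 read pairs. The body feature from 58868309, in an intron, was seen in 3 cells, all of paired wells. Of the 20 read pairs in the 6 features of the gene, 12 came from plate 1 cell 85, and 3 of the features were seen only in that cell. Outside the paired wells, 1 of the 6 features was seen, in 1 cell.

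KCNQ1OT1, a paternally expressed antisense RNA of KCNQ1 on chromosome 11 (ENSG00000269821.2, 2597308 to 2700003, reverse strand), had no promoter feature at its 6 annotated starts. It had 9 body and flank features, and 1 of these, from 2692869 over an exon, was seen in 4 cells (2.47%), the others in 1 or 2. Of the 34 read pairs in them, 23 (67.6%) came from plate 2 cell 90. This cell had 6 of the 9 features, and 4 of these were seen in no other passing cell. Without strand in ATAC-seq, features in KCNQ1OT1 and in KCNQ1 cannot be told apart.

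In plate 2 cell 90 the surplus was not limited to the gene. This nucleus had 2.19% of its 6714 read pairs in the features between 1 and 5 Mb of chromosome 11, where the other passing cells had a median of 0.0923% and at most 1.03%. It held 3.42 read pairs per feature there and 1.20 elsewhere. Plate 1 cell 85 had 14 of its 1277 read pairs in the 39 features between 58 and 60 Mb of chromosome 20, and 12 of these 14 lay in the GNAS features. These segments were chosen after their values were seen, and the cause was not tested. The member farthest out in a flank, at 18629 bp from KCNQ1OT1, and the nearest feature past 20000 bp, at 22966 bp from PLAGL1, were each seen in 2 cells. With both nuclei left out, 21 of the 27 body and flank features were still seen.

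**Figure D4:**
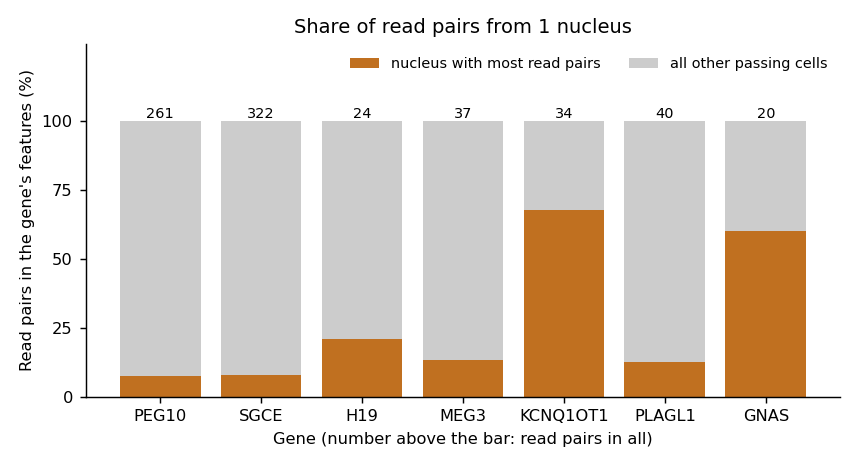
For each gene with at least 10 read pairs in its features, the percentage of those read pairs (y axis) that came from the nucleus with the most (orange) and from all other passing cells (grey), with the number of read pairs above each bar. One nucleus gave 67.6% for KCNQ1OT1 and another gave 12 of the 20 read pairs for GNAS, and the highest nucleus gave 20.8% or less for the other genes.

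The remaining genes had 1 called feature among them. SNRPN, a paternally expressed gene of the Prader-Willi region on chromosome 15 (ENSG00000128739.23, 24823637 to 24978723), had no promoter feature at its 10 distinct starts, and 1 body feature, in an intron from 24916269, seen in 2 cells. These cells are a pair of paired wells of plate 1. MEST, a paternally expressed gene of a hydrolase-like protein on chromosome 7 (ENSG00000106484.16, 130486171 to 130506465), had no feature within 20000 bp for any of its 17 starts. PEG3, a paternally expressed zinc finger gene on chromosome 19 (ENSG00000198300.14, 56810077 to 56840728), also had none, for 10 starts. The table lists only called peaks, so no limit on openness follows for these genes. On chromosome 19, 33.9% of the protein-coding genes had a promoter feature, beside 64.1% on chromosome 7 and 65.7% on chromosome 15. For GNAS, the share on chromosome 20 was 44.3%, and 0.733% of the genes there reached 10% of passing cells.

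Of the 10 genes, 6 were matched by symbol in the RefSeq promoter table, with 24 promoters, of which 5 had a feature within 1000 bp of the start. PEG10, SGCE, PEG3 and KCNQ1OT1 had no entry. Over all 35116 RefSeq promoters the share with a feature was 40.3%, and it moved with GC content. It was 11.6% for promoters under 40% GC, 35.3% from 50 to 60% and 56.05% from 60 to 70%. It was 64.4% from 70 to 80% GC. The MEST, SNRPN and GNAS promoters printed above had 70.3, 64.3 and 76.3% GC. They were printed as the promoters with the most CG dinucleotides of their genes and as promoters without a feature. Their GC content beside these shares was thus fixed by the choice and is no result. The part of methylation in whether a promoter had a feature was not tested.

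The plates were compared by the share of cells, among promoter features seen in at least 10 cells. Of the 14, 4 were, and 2 of these were at least 2-fold apart, the overlapping MEG3 features, both higher in plate 2. Over all promoter features this share was 21.1%. The plate intervals of the first MEG3 feature, 1.33 to 11.9% and 5.34 to 20.5%, overlapped. Outside the paired wells it was seen in 2 cells of each plate. Of its 13 cells, 9 were in paired wells, and 4 of these had a paired well that also held it. Of the 14 promoter features, 11 were seen in both plates.

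Over the promoter features, TGCCGC was in 6 of 14 (40.7% of all promoter features hold it, on either strand), GGNGGCAG in 7 of 14 (42.1%) and GCCATNTT, a part of the YY1 motif, in 1 of 14 (16.3%). The PEG10 intron feature holds none of them. A match is a description and not a binding site. The median GC content was 56.7% over the 14 features and 56.9% over all promoter features.

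Of 57 other genes listed as imprinted, for some of which imprinting depends on the tissue, 27 had a promoter feature, with a median of 3.70% of passing cells for the most-seen one of each gene, and 4 reached 10%. Over all protein-coding genes 56.1% had a promoter feature and 8.20% reached 10%, so these counts are near those shares. The list of 57 also holds genes of noncoding RNAs, such as AIRN and MEG8, so it differs in gene type from that background. The 4 were DLX5, a homeobox gene, in 22 cells (13.6%), PON2, which encodes a paraoxonase, in 21 (12.96%), TFPI2, a serine protease inhibitor gene, in 20 (12.3%), and PPP1R9A, which encodes the actin-binding protein neurabin, in 18 (11.1%). All 4 lie on chromosome 7 on either side of PEG10 and SGCE. The stretch from CALCR to DLX5 (93424486 to 97024950) was chosen after these values were seen. In it 12 of 48 promoter features (25%) reached 10%, beside 7.74% over all promoter features. So did 10 of 20 protein-coding genes, beside 14.9% of genes on all of chromosome 7. PEG10 and SGCE are among the 10 through features that they share, 1 of which the set was chosen for. UBE3A, a ubiquitin ligase gene on chromosome 15 like SNRPN, was seen in 15 cells, 12 of plate 1 and 3 of plate 2. IGF2, DLK1, NDN, MAGEL2 and NNAT had no promoter feature.

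Of 13 regulators of imprints, 8 had a promoter feature and none reached 10%, which with 13 genes cannot be set apart from the 56.1% and 8.20% of all protein-coding genes. CTCF was seen in 13 cells (8.02%), the demethylase gene TET2 in 10 (6.17%), TRIM28 in 8 (4.94%), the maintenance methyltransferase gene DNMT1 in 5 (3.09%) and ZFP57 in 3 (1.85%). ZNF445, UHRF1, DPPA3, TET1 and TET3 had none.

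**Figure D5:**
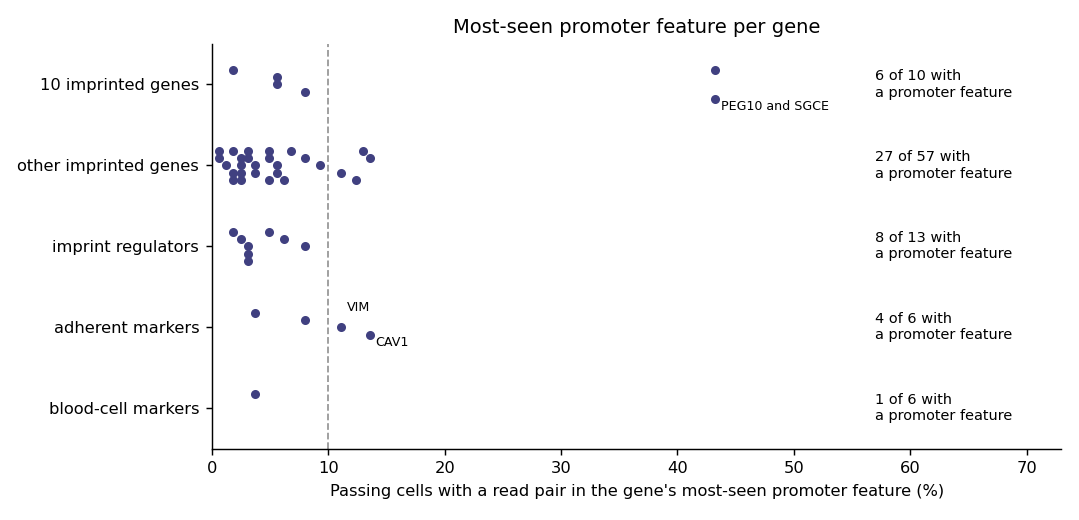
Percentage of passing cells (x axis) with the most-seen promoter feature of each gene, for the 10 imprinted genes, 57 other imprinted genes, 13 imprint regulators and 6 markers each of adherent and blood cells (y axis), 1 point per gene with a feature and a dashed line at 10%. PEG10 and SGCE share the feature at 43.2%, and the other imprinted genes end at 13.6%.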

How the data were processed

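Plate-based snATAC-seq of HAP1 gave 1 library per nucleus. Per the Methods, the authors trimmed the reads and set aside those carrying CASB, mapped the others to hg38 with bowtie2, discarded mitochondrial, low-quality and duplicate reads, and called peaks with MACS2 over all cells. The submitters' processing notes name MACS2 (version not given there) and featureCounts. The deposited table holds raw read-pair counts for each feature in each cell, which the authors obtained with featureCounts 1.6.0, without normalization. A pair counts in each feature it overlaps. Duplicates were removed cell by cell, which would leave a molecule read in more than 1 well, and whether this occurred was not tested. Every column was matched to 1 cell, and 0 were left over.

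To choose cells, counts were binarized, and cells with more than 300 peaks that were seen in more than 1 cell passed. All features were then described in the passing cells, those of 1 cell included. Starts and genes came from GENCODE 44, sequences from hg38 and RefSeq (GRCh38.p14). Passing cells held 345 to 15351 read pairs, which limits what 1 cell can show. Groups are plates, each 1 sample, so shares have exact 95% intervals and no test was made. The genes, lists, motifs and comparisons were chosen with earlier results of these data known. Named were all 10 genes with their promoter features, body and flank features in at least 5% of passing cells or else the most-seen one per gene, other imprinted genes and regulators reaching 10%, and the 3 features with the highest Jaccard index with the PEG10 intron feature. UBE3A, genes without a feature, regulators under 10% and chosen segments were named after their values were seen. Alternatives covered the cutoffs for cells and features, paired wells, thinning to 600 read pairs, the distance to starts and the flank. The scripts were tested on simulated data. Python 3.11.15, NumPy 2.4.6, pandas 2.3.3 and SciPy 1.17.1 were used. The sequence of 1 region is not reported here.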

Additional observations from a re-analysis of the deposited data

How the results depend on the processing

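No paired analysis was possible because no result here rests on a test, and cell numbers do not pair cells across plates. Counts and medians were called unchanged within 1.5 times their value. The causes of the changes below were not tested, except where fewer cells or read pairs bring them about by construction. The median share over the 14 promoter features (4.32%) was 2.75% without the paired wells, 0.926% with at least 2 read pairs and 0.342% after thinning to 600 read pairs. The number of promoter features in at least 10% of cells (2) was 1 with all sorted cells, with at least 2 read pairs, after thinning and when a feature had to contain a start, and 7 with a cutoff of 5%. It was 2 with more than 1000 peaks, without the paired wells (6.2% over all promoter features) and with basic transcripts, and 3 within 2000 bp. The number of promoter features at least 2-fold apart between the plates (2) was 0 with more than 1000 peaks, with at least 2 read pairs and after thinning. It was 1 without the paired wells, the shared PEG10 and SGCE start with 7 of 48 and 3 of 43 cells, and 1 with read pairs scaled to the total of each plate in place of cells. The number of body and flank features (27) was 15 without a flank and 13 without the paired wells, where their median share fell from 1.85% to 0%. Without plate 2 cell 90 and plate 1 cell 85, an alternative chosen after seeing the data, it was 21. The PEG10 intron feature was seen in 53.8% of cells with more than 1000 peaks, 37.5% of all sorted cells, and 22.2% with at least 2 read pairs. Of the 14 single shares, 12 stayed within their interval without the paired wells and 3 after thinning. Depth limits all of these shares, since a shallow cell without a read pair is not shown to be closed.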
